A study of Mus musculus with 6 samples.

Results

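Coch, Spon2, Clca3a1 and Svep1 encode 3 secreted proteins and 1 protein of the cell surface, and they were chosen by name from the 41064 genes of a deposited expression table because their levels differed strongly between the 2 groups of aortas. The 4 genes are therefore described below and given no p-value, and tests are kept for other genes. The aortas came from mice given angiotensin II (Ang II), a peptide that raises blood pressure and provokes remodelling of the vessel wall. One group of 3 libraries was labelled as knockout of Josd2, a deubiquitinase gene, with Ang II, and the other group of 3 as wild type with Ang II. Both groups had received Ang II, so no value below shows what Ang II itself did. The labels give neither the animals' age, sex or strain nor the kind of Josd2 allele, and none of them links a library to 1 mouse, so p-values measure the spread between these libraries, which may be technical.

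Cochlin, the product of Coch, is a secreted matrix protein with an LCCL domain and von Willebrand factor type A domains, best known from the inner ear, where changes in the human gene cause deafness. In mice its LCCL fragment is released by aggrecanases during bacterial infection, and follicular dendritic cells of lymphoid tissue are a known source. Spon2 encodes mindin (spondin 2), a secreted protein of the F-spondin family that binds bacterial lipopolysaccharide and leukocyte integrins. Clca3a1 belongs to the CLCA family, whose members are named for calcium-activated chloride currents, carry a metalloprotease domain and sit at the cell surface or are shed; in mice its product is a known surface antigen of lymphatic endothelium. Svep1 encodes polydom, a very large secreted protein built of sushi, epidermal growth factor-like, von Willebrand factor type A and pentraxin domains. Polydom binds integrin alpha-9/beta-1, is made by mesenchymal cells, and is needed for lymphatic vessels to remodel in the mouse embryo.

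Before any direction is read, the targeted gene serves as a check of the labels. Josd2 had 21.7, 19.9 and 21.4 CPM (counts scaled to a common library size, after TMM scaling) in the libraries labelled knockout, against 29.9, 31.0 and 29.3 CPM in wild type. The labelled knockouts kept 69.8% of the wild type level (log2 fold change -0.52, SE 0.07, edgeR adjusted p = 0.000244), and scaled by library totals the difference did not pass edgeR's test (-0.11, adjusted p = 0.231). The transcript was thus present in every library, the table has no counts per exon, and each direction below rests on the label alone, hence the name labelled knockouts. Total counts were 69788553 to 75886761 in the labelled knockouts and 63612353 to 74241278 in wild type. They were read as about 4 counts per read pair, which was inferred from how often low counts occur and was not tested. All numbers of read pairs below, and the floor set in read pairs, rest on that reading. Mitochondrial genes took 23.8% to 23.9% of counts in the labelled knockouts and 36.2% of counts in each wild type library. Of 20132 genes that passed the filter on low counts, edgeR called 4981 at an adjusted p under 0.05, which is 24.7%; 53.4% of these calls were higher in the labelled knockouts, and 92.5% of 10193 calls were higher when libraries were scaled by their totals. The scaling by totals lifts the median tested gene by 0.41 on the log2 scale, and log2 fold changes are read on the TMM scale unless another is named.

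Coch was moderately expressed in the labelled knockouts and close to the detection floor in wild type. It lies on chromosome 12 from 51593341 to 51605771 on the plus strand, in the coordinates of the deposited table, which for Coch, Spon2 and Clca3a1 equal GRCm38 gene models and for Svep1 differ from them. Its level was 9.15, 7.31 and 7.55 CPM in the labelled knockouts, against 0.363, 0.809 and 0.264 CPM in wild type. The lowest labelled knockout library stood 9.04-fold above the highest wild type library, and the 3 wild type values rest on only about 5, 12 and 4 read pairs against 184, 160 and 157 in the labelled knockouts. The mean was 8.01 ± 1.002 CPM in the labelled knockouts and 0.478 ± 0.290 CPM in wild type (SD, n = 3 each), a fitted 16.8-fold difference. Among wild type libraries the coefficient of variation was 60.7%, where genes of like count had a median of 46.9%.

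Clca3a1, on chromosome 3 from 144729677 to 144760977 on the minus strand, was low in wild type too. It had 31.6, 32.4 and 34.5 CPM in the labelled knockouts and 2.28, 2.57 and 3.07 CPM in wild type. The groups stood far apart, since the lowest labelled knockout library was 10.3-fold above the highest wild type one, and within each group the libraries lay close together, with a coefficient of variation of 4.63% in the labelled knockouts and 15.1% in wild type. The means were 32.8 ± 1.52 CPM in the labelled knockouts and 2.64 ± 0.400 CPM in wild type (SD, n = 3 each), a fitted 12.4-fold difference. Of its longest transcript, 39.9% is at least 97% identical to transcripts of other genes (the neighbouring paralog Clca3a2, Gm43240 and Gm34866), so reads could have been divided between them. Clca3a2 itself had 1.64, 0.481 and 0.661 CPM in the labelled knockouts and 0.417, 0.914 and 0.124 CPM in wild type. Both groups were low and overlapped, and Clca3a2 did not pass the test (log2 fold change 0.94, SE 0.70, edgeR adjusted p = 0.385).

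Svep1 was well above the detection floor in both groups, and among the labelled knockouts it varied least of the 4 genes. It lies on chromosome 4 from 58042442 to 58206688 on the minus strand. It had 138.7, 139.2 and 140.8 CPM in the labelled knockouts, against 39.9, 35.6 and 38.3 CPM in wild type. Each labelled knockout library exceeded each wild type library by at least 3.47-fold, and the labelled knockouts varied by 0.798% and wild type by 5.71% (coefficients of variation). Genes of like count had medians of 2.49% in the labelled knockouts and 5.74% in wild type. The means were 139.6 ± 1.11 CPM in the labelled knockouts and 37.96 ± 2.17 CPM in wild type (SD, n = 3 each), a fitted 3.68-fold difference. A gene on the opposite strand overlaps 13.9% of the Svep1 exon bases, and Gm34866, also on the opposite strand, overlaps 4.36% of those of Clca3a1; the sources used here do not say whether counting used strand. Of the longest Svep1 transcript, 10.5% is shared with Gm26889 and Gm15079 at the identity limit used for Clca3a1.

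Spon2 went the other way. It lies on chromosome 5 from 33198184 to 33218455 on the minus strand. In the labelled knockouts it had 0.808, 0.378 and 0.456 CPM, against 31.1, 31.1 and 28.7 CPM in wild type. The labelled knockout values rest on about 16, 8 and 10 read pairs and those of wild type on 429 to 462, and the lowest wild type library lay 35.5-fold above the highest labelled knockout library. The means were 0.548 ± 0.229 CPM in the labelled knockouts and 30.3 ± 1.40 CPM in wild type (SD, n = 3 each), so Spon2 was a fitted 55.5-fold lower in the labelled knockouts. No exon of Spon2 or Coch overlaps another gene in the GENCODE annotation, and no stretch of their longest transcripts met the similarity limit used for Clca3a1.

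**Figure D1:**
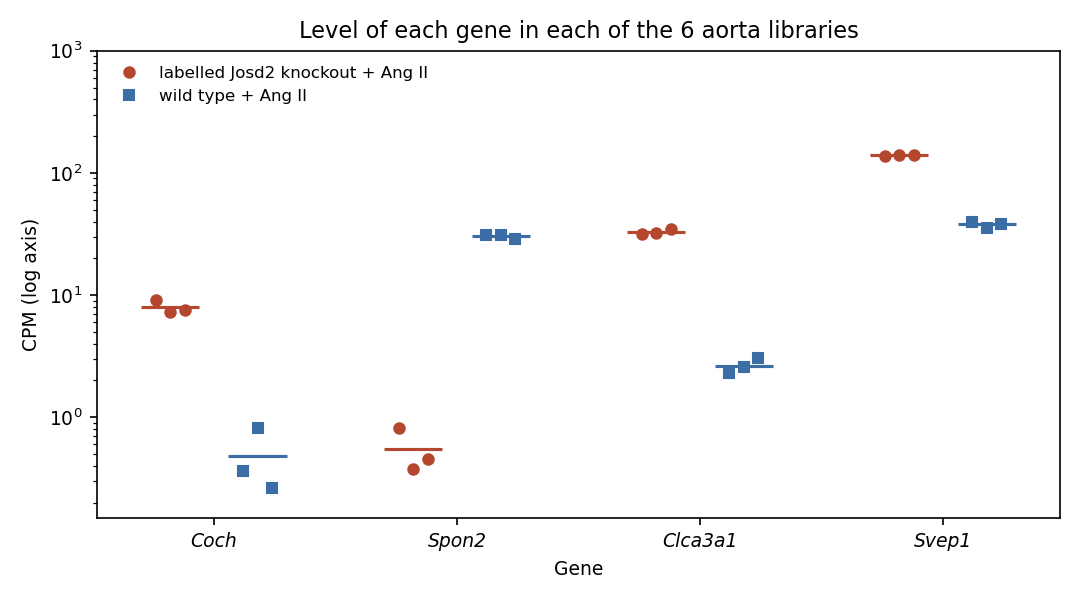
Level of Coch, Spon2, Clca3a1 and Svep1 in CPM on a log axis, with 1 point per library and a line at the mean of each group of 3 (circles, labelled Josd2 knockout with Ang II; squares, wild type with Ang II). Coch, Clca3a1 and Svep1 are higher in every labelled knockout library and Spon2 is lower in every one.

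In the plot of levels by library, none of the 4 genes had overlapping groups. Groups did not overlap for 41.1% of all tested genes, with 21.3% higher and 19.8% lower in the labelled knockouts. By edgeR's call 13.2% of tested genes were higher and 11.5% lower. The 4 genes were picked for this difference, so nothing is read from their count. Among 11970 tested genes with a mean of at least 1 FPKM in the higher group, Coch held rank 8, Clca3a1 rank 12 and Svep1 rank 98 by fitted increase, and Spon2 held rank 5 by fitted decrease.

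Per length, as deposited FPKM (fragments scaled by gene length and library size), the 4 genes changed places between groups. In the labelled knockouts Svep1 was at 8.44 ± 0.0801 FPKM and Clca3a1 at 8.21 ± 0.392 FPKM, a pair whose libraries overlap, followed by Coch at 2.60 ± 0.323 FPKM and Spon2 at 0.175 ± 0.0752 FPKM. In wild type Spon2 led at 7.54 ± 0.337 FPKM, ahead of Svep1 at 1.73 ± 0.0998 FPKM, Clca3a1 at 0.495 ± 0.0757 FPKM and Coch at 0.112 ± 0.0713 FPKM (SD, n = 3 each), with no overlap between neighbours in that order. Svep1 is well transcribed in both groups: its FPKM exceeded that of 83.0% of tested genes in the labelled knockouts and 57.2% in wild type. Clca3a1 exceeded 82.5% in the labelled knockouts and 35.4% in wild type, and Coch 58.8% in the labelled knockouts and 14.7% in wild type. Spon2 exceeded 18.3% in the labelled knockouts and 85.5% in wild type. These are bulk tissues, in which fewer cells of a type and less RNA per cell cannot be told apart.

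No RefSeq promoter window was available for Spon2, so the promoters shown are those of the 3 genes that were higher in the labelled knockouts. They are given to compare base composition, as the 250 bases before the RefSeq transcription start (GRCm38.p6, 5′ to 3′ on the gene's strand). Capitals mark CAGAC or its complement GTCTG, the core element that SMAD proteins bind.
Coch, chr12:51593091-51593340, plus strand: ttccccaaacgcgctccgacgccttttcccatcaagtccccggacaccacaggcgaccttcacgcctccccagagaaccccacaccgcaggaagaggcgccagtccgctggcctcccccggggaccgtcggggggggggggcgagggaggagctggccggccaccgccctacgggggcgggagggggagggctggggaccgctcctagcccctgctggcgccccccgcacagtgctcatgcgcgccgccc
Clca3a1, chr3:144760978-144761227, minus strand: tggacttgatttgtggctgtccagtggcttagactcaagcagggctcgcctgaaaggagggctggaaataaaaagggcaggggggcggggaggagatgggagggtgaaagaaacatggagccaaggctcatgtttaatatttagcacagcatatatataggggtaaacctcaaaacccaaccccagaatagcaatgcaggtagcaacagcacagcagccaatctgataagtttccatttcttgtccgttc
Svep1, chr4:58206597-58206846, minus strand: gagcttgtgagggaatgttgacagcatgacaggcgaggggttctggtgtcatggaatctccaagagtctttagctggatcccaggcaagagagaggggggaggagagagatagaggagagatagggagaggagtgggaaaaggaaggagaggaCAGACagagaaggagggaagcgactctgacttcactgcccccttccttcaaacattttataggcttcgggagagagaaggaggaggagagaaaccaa
The Coch window is rich in CpG, with 24 CpG and 74.8% G and C, against medians of 6 CpG and 52.4% over 32841 RefSeq windows of the same length. Both others had 3 CpG, with 48.8% G and C in Clca3a1 and 52.4% in Svep1. The core element, searched on both strands with no other motif overlapping it, was found 1 time in Svep1 and not in the windows of Coch or Clca3a1, and 42.2% of all windows hold it. The letters TATAAA or their complement TTTATA occurred 1 time in Svep1, at a share of 12.4% of all windows, and not in the other 2. The table places the start of Svep1 upstream of the RefSeq start, so the end of its window, with the TTTATA match, lies inside the gene as the table gives it. A match describes letters and not a bound site.

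Genes for proteins outside the cell were called at a higher rate than all tested genes. Of 1518 tested genes to which the deposited annotation gives an extracellular region, space or matrix term, 696 passed the test, 360 higher and 336 lower in the labelled knockouts, which is 45.8% against 24.7% of all tested genes. The median log2 fold change of the extracellular genes was 0.01, against -0.003 over all tested genes. The annotation gives such a term to Coch, Spon2 and Svep1, and it places Clca3a1 at the plasma membrane.

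Which relatives and partners of the 4 genes moved was asked next, with lists of genes named for family or known binding. The share to set beside each list is that over all tested genes, 13.2% higher and 11.5% lower. For Coch the list held 11 genes with related domains or that cut cochlin, of which 10 were tested, 3 were higher, 2 lower and 5 did not pass, with a median log2 fold change of 0.12. Vit, which encodes vitrin, the closest relative of cochlin, had 9.07, 9.43 and 10.6 CPM in the labelled knockouts and 7.51, 5.49 and 6.96 CPM in wild type. It was higher by a far smaller step than Coch (log2 fold change 0.55, SE 0.15, edgeR adjusted p = 0.0211), and this call was lost without any 1 of 3 libraries (labelled knockout 2, labelled knockout 3 or wild type 2; adjusted p of 0.0559 to 0.0917). The LCCL protein gene Dcbld1 rose by 0.85 (SE 0.22, edgeR adjusted p = 0.0152), a call lost without labelled knockout 2 (adjusted p = 0.071), whereas its relatives Dcbld2 (0.17), Crispld1 (0.07) and Crispld2 (0.05) did not pass, although all 3 did with library totals. Without labelled knockout 2 this list therefore had 3 calls in place of 5. Of the aggrecanases, Adamts5 rose by 0.33 on the log2 scale (SE 0.07) and Adamts4 fell by 0.79 (SE 0.17), although Adamts4 was not called with library totals (-0.38, edgeR adjusted p = 0.086). Matn2, a matrilin gene with von Willebrand factor type A domains, fell by 0.32 (SE 0.06), but stood at 0.09 with no call when scaled by library totals.

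The relatives and receptors of mindin were lower or did not pass. Of 10 genes 9 were tested, 6 fell and 3 did not pass, with a median log2 fold change of -0.54 that stayed negative, at -0.13, with library totals. Spon1, which encodes F-spondin, had 9.13, 9.91 and 9.79 CPM in the labelled knockouts, against 20.8, 21.7 and 21.9 CPM in wild type. The groups did not overlap, and Spon1 was 2.24-fold lower (log2 fold change -1.16, SE 0.09, edgeR adjusted p = 3.06e-06), a much smaller step than that of Spon2. Itgb2, the beta subunit of leukocyte integrins, was 2.49-fold lower (SE 0.10 on the log2 scale), at 7.33 ± 0.202 CPM in the labelled knockouts and 18.3 ± 1.24 CPM in wild type (SD, n = 3 each). Its partner Itgam fell by 0.83 (SE 0.17) and Itga4 by 0.45 (SE 0.10), though neither was called with library totals (edgeR adjusted p = 0.0616 for Itgam and 0.788 for Itga4). The fibronectin receptor gene Itga5 fell by 0.54 (SE 0.02). Among R-spondins, which enhance Wnt signalling, Rspo1 fell by 1.98 (SE 0.53, edgeR adjusted p = 0.0196), a call lost without labelled knockout 3, wild type 1 or wild type 2 (adjusted p of 0.0573 to 0.0625). Rspo2 (-0.12) and Rspo3 (-0.30) did not pass. Sspo, which encodes SCO-spondin, did not pass edgeR's test either (2.10, SE 1.01, adjusted p = 0.167), although it did in DESeq2 (adjusted p = 0.0491). Itgb2 and Itgam are leukocyte genes, and the macrophage list below was lower as well; its part in these values was not tested.

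Clca3a1 was the one CLCA gene with a group mean above 1 CPM. Among the other 6 family members, Clca3a2, Clca2 and Clca3b were tested and did not pass (edgeR adjusted p of 0.385 to 0.699), while Clca1, Clca4a and Clca4b were under the filter, and no mean exceeded 0.928 CPM in the labelled knockouts or 0.485 CPM in wild type. Of the 3 chloride channel genes on that list, Ano1, the main calcium-activated chloride channel of vascular smooth muscle, fell to 85.3 ± 1.25 CPM in the labelled knockouts, against 128.6 ± 6.08 CPM in wild type (SD, n = 3 each; log2 fold change -0.59, SE 0.04). Ano6, a scramblase and channel gene, rose by 0.35 (SE 0.04), and Best3, of the bestrophins, did not pass (0.69, SE 0.34, edgeR adjusted p = 0.174), although it did with library totals (1.10, adjusted p = 0.0177). In all, 6 of 9 genes were tested, 1 rose and 1 fell, with a median of 0.52.

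Receptors and signalling partners of polydom were mostly higher. All 10 genes of that list were tested, 6 rose, 2 fell and 2 did not pass, with a median log2 fold change of 0.36. Thus 80% were called, against 24.7% of all tested genes. The integrin subunit gene Itga9 had 422.6, 421.3 and 429.8 CPM in the labelled knockouts, against 301.9, 307.8 and 308.4 CPM in wild type. The groups did not overlap (log2 fold change 0.47, SE 0.02, edgeR adjusted p = 4.69e-08). Its partner Itgb1, which serves many integrins, fell by 0.18 (SE 0.01) and turned to 0.23 with library totals. Tie1, an endothelial receptor of the angiopoietin system, was at 68.6 ± 2.10 CPM in the labelled knockouts and 30.95 ± 0.805 CPM in wild type (SD, n = 3 each), 2.22-fold higher. The receptor gene Tek rose by 0.66 (SE 0.06) and the phosphatase gene Ptprb, which acts on Tek, by 0.72 (SE 0.04). Of the ligands, Angpt2 rose by 0.24 (SE 0.05), Angpt1 by 1.05 (SE 0.29, edgeR adjusted p = 0.0231; not called without labelled knockout 2, labelled knockout 3, wild type 1 or wild type 2, at adjusted p of 0.052 to 0.103), and Angpt4 fell by 1.39 (SE 0.09). Pear1, another receptor of polydom, did not pass (-0.07, SE 0.07, edgeR adjusted p = 0.56), nor did the lymphatic valve factor gene Foxc2 (-0.01, SE 0.06); with library totals both passed upward (0.34 and 0.40). Tie1, Tek and Ptprb are endothelial genes, and the blood endothelial list below was higher as well; its part in these values was not tested.

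**Figure D2:**
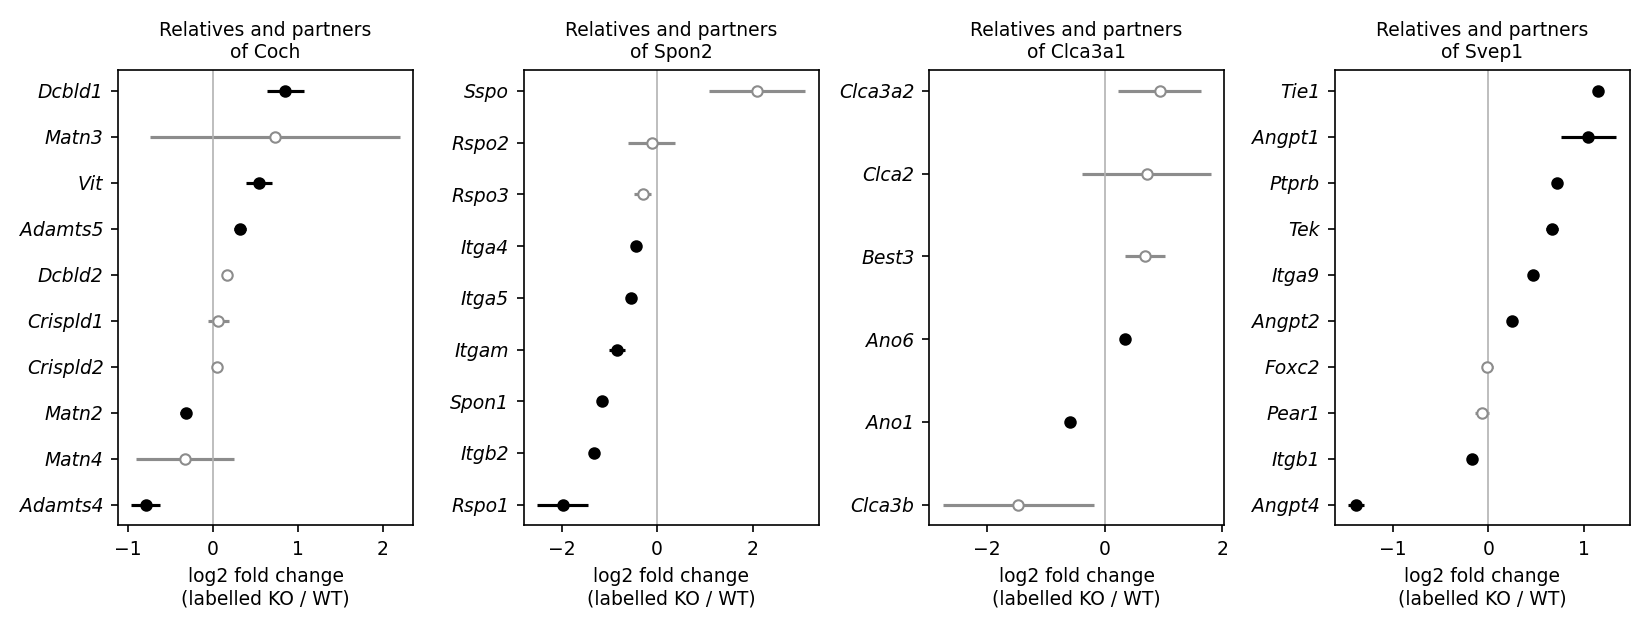
Fitted log2 fold change (labelled knockout over wild type) of each tested relative or partner of Coch, Spon2, Clca3a1 and Svep1, with bars of 1 SE; filled points passed edgeR's test at an adjusted p under 0.05 and open points did not. The tested genes of the Spon2 list that passed all lie below 0, and 6 of the 8 that passed in the Svep1 list lie above it.

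To set the 4 genes beside the cells and vessel stretches that could supply them, marker genes of 13 cell types, organs and positions were counted. Over all tested genes 24.7% were called, 13.2% higher and 11.5% lower. By list the share called ran from 12.5% for B cells and plasma cells to 90% for smooth muscle and for blood endothelium. A high share called was therefore not particular to 1 list. Lymphatic endothelium, where the Clca3a1 product is known as a surface antigen, gave a divided result. Its 8 markers summed to 93.0 to 94.3 CPM per library in the labelled knockouts and 54.7 to 61.5 CPM in wild type, with none at 0. Prox1, the lymphatic master regulator, had 8.11, 9.48 and 8.32 CPM in the labelled knockouts and 0.997, 0.633 and 1.23 CPM in wild type. Mmrn1 had 28.9, 26.7 and 26.4 CPM in the labelled knockouts and 5.26, 4.77 and 5.48 CPM in wild type. Neither gene had overlapping groups, and Prox1 was 9.02-fold higher (log2 SE 0.24, edgeR adjusted p = 2.69e-06), Mmrn1 5.29-fold (log2 SE 0.10) and the receptor gene Flt4 3.97-fold (log2 SE 0.14). The other 5 markers did not join them. Lyve1 fell by 0.26 and Pdpn by 0.57, calls that were lost with library totals (0.15 for Lyve1 and -0.16 for Pdpn). Neither was called without labelled knockout 2, labelled knockout 3 or wild type 2, which left 3 called markers in each case. Ccl21a (-0.57, edgeR adjusted p = 0.0609), Reln (0.23) and Stab2 (0.25) did not pass, although Reln did with library totals. Ccl21a was called lower in DESeq2 (adjusted p = 0.0108) and in edgeR with counts divided by 4 (adjusted p = 0.0325). It was also called lower in edgeR with the replicate number as a block (adjusted p = 0.0217). Whether lymphatic cells supplied the Clca3a1 transcript was not tested.

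Blood endothelial markers were higher. Of 10 tested, 8 rose, 1 fell and 1 did not pass, with a median log2 fold change of 0.82, and their sum was 1374 to 1394 CPM in the labelled knockouts and 938.6 to 978.7 CPM in wild type. Kdr, a receptor of vascular endothelial growth factor, was 3.64-fold higher (log2 SE 0.12), Vwf 2.14-fold (log2 SE 0.03) and the cadherin gene Cdh5 stood at 0.95 (SE 0.06). Cldn5, a tight junction gene, fell by 0.29 but stood at 0.12 with library totals.

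Fibroblast and smooth muscle markers did not move in a single direction. Of 12 markers of adventitial fibroblasts, mesenchymal cells of the outer wall, 4 rose, 6 fell and 2 did not pass, and the sum was 2640 to 2670 CPM in the labelled knockouts and 2517 to 2573 CPM in wild type. The collagen gene Col14a1 rose by 0.94 (SE 0.02) and Serpinf1 by 0.55 (SE 0.03), while Ly6a fell by 0.60 (SE 0.04). The list's median was -0.19, or 0.22 with library totals, where 8 rose and 1 fell. Of 10 smooth muscle markers 5 rose, 4 fell and 1 did not pass, with a median of 0.11 and 0.52 with library totals. Des, which encodes desmin, fell by 2.19 (SE 0.05), Acta2 by 0.30 (SE 0.0045), although it stood at 0.11 with library totals, and Myh11 rose by 0.27 (SE 0.01). The summed smooth muscle level was 21786 to 21961 CPM in the labelled knockouts and 22840 to 22976 CPM in wild type, so the defining markers of the vessel wall were abundant in every library.

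Leukocyte markers were divided. Of 9 macrophage markers 8 fell and 1 did not pass, with a median of -0.98 (-0.57 with library totals, where 7 fell and 1 rose). Their sum was 364.5 to 370.4 CPM in the labelled knockouts against 747.7 to 769.9 CPM in wild type. Lyz2 was 2.57-fold lower (log2 SE 0.03), C1qb stood at -1.15 and C1qa at -0.89. Of 8 markers of B cells and plasma cells 1 rose, which was Jchain, the joining chain of secreted antibodies, at 18.4 ± 0.625 CPM in the labelled knockouts and 7.46 ± 1.60 CPM in wild type (SD, n = 3 each; log2 fold change 1.30, SE 0.14). The other 7 did not pass, among them Mzb1 (0.86), and the list summed to 25.4 to 26.6 CPM in the labelled knockouts and 13.4 to 22.8 CPM in wild type.

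Several lists report tissue beside the aorta or the stretch of vessel sampled, and some of their genes differed by as much as Spon2. These lists, like the others, were chosen with earlier results of these data known, so their counts are descriptions. Of 12 markers of lung, kidney and seminal vesicle, 10 were tested and 8 fell, with a sum of 1.32 to 1.91 CPM in the labelled knockouts and 32.3 to 36.5 CPM in wild type. The kidney water channel gene Aqp2 had 0.51, 0.241 and 0.324 CPM in the labelled knockouts and 17.4, 16.1 and 16.4 CPM in wild type, 46.5-fold lower. The surfactant gene Sftpc was 58.5-fold lower (log2 SE 0.55), the airway gene Scgb1a1 stood at -2.20 (SE 0.28), and the seminal vesicle genes Svs4 and Svs2, at 0 counts in all labelled knockout libraries, were at least 8.35-fold and 4.53-fold lower against a floor of 12 counts per library. With such genes at their bound, the median log2 fold change of the list was -3.51, and -4.75 as fitted. The other kidney genes were not called: Slc12a1 stood at 0.23 (SE 1.48, edgeR adjusted p = 0.935), and Umod and Kap were under the filter. Svs6, of the seminal vesicle, did not pass either (-0.82, SE 0.90). What part tissue beside the aorta had in the Spon2 level was not tested.

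Hox genes mark position along the body axis, and the posterior ones were lower in the labelled knockouts. Of the 15 posterior Hox genes measured, 11 were tested, 8 fell and 3 did not pass, with a sum of 3.53 to 5.01 CPM in the labelled knockouts and 24.1 to 26.9 CPM in wild type, and Hoxb13 and Hoxd13 at 0 in every library. The list's median log2 fold change was -2.34 with genes at 0 counts in a group set at their bound, and -3.20 as fitted. Hoxa11 had 0 counts in all labelled knockout libraries, against 3.26, 3.78 and 3.23 CPM in wild type, at least 22.9-fold lower. Hoxa10 stood at -3.79 (SE 0.36), and Hoxa13, with a mean of 0.0153 ± 0.0265 CPM in the labelled knockouts and 1.99 ± 0.180 CPM in wild type (SD, n = 3 each), had no overlap either. Of 23 anterior and middle Hox genes 22 were tested, 4 rose, 5 fell and 13 did not pass, with the middle genes Hoxa7 (-1.05, SE 0.09), Hoxc8 (-1.77, SE 0.24) and Hoxc6 (-1.58, SE 0.22) among those lower. The 4 that rose were Hoxa4 (1.55, SE 0.24), Hoxa3 (0.61, SE 0.11), Hoxb4 (0.64, SE 0.14) and Hoxa2 (0.96, SE 0.24), of which Hoxa2 was not called without labelled knockout 1 or wild type 1 (edgeR adjusted p of 0.0589 and 0.0534). The list summed to 120.3 to 122.2 CPM in the labelled knockouts and 128.1 to 131.1 CPM in wild type, and its median was -0.12, or 0.29 with library totals. Of 14 factors of the heart, aortic arch and outflow tract 11 were tested, 4 rose and 3 fell, with a median of 0.45: Tbx20 rose by 1.80 (SE 0.17) and Dlx6 by 3.85 (SE 0.53), whereas Tbx2 fell by 1.61 (SE 0.17). Their sum was 62.9 to 101.1 CPM in the labelled knockouts and 65.3 to 122.5 CPM in wild type, most of it Mef2c, which had 71.8, 31.4 and 32.5 CPM in the labelled knockouts and 36.2, 34.2 and 89.6 CPM in wild type. Nkx2-5 was at 0 in every library. The stretch of aorta in each library is not given by the labels, and position and genotype label cannot be told apart for the 4 genes.

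The remaining lists were small. Of 9 heart muscle genes 8 were tested, 2 rose and 1 fell; Tnnt2 rose by 0.61 (SE 0.08), Myl7, at 0 counts in wild type, was at least 2.47-fold higher, and Ryr2 fell by 0.37 but stood at 0.04 with library totals and was not called without labelled knockout 2, wild type 2 or wild type 3, the list summing to 65.5 to 68.5 CPM in the labelled knockouts and 60.3 to 69.97 CPM in wild type with a median of 0.55. Of 8 fat cell genes 3 rose and 5 did not pass, with a median of 0.31 and a sum of 77.2 to 80.6 CPM in the labelled knockouts and 53.5 to 58.3 CPM in wild type; Adipoq rose by 0.93 (SE 0.07) and Plin1 by 1.13 (SE 0.16). Of 7 mesothelial genes 3 were tested and Gpm6a alone rose, at 8.98 ± 0.667 CPM in the labelled knockouts and 1.22 ± 0.136 CPM in wild type (SD, n = 3 each). The other 6, which include the defining markers Msln, Upk3b and Wt1, had at most 0.524 CPM in the labelled knockouts and 1.25 CPM in wild type as means. The list summed to 9.63 to 11.1 CPM in the labelled knockouts and 1.93 to 3.66 CPM in wild type, with a median of 0.99 over the 3 tested genes, and most of the labelled knockout sum was Gpm6a. Upk3b, under the filter here, was called higher in DESeq2 (adjusted p = 0.0025) and in edgeR with no filter (adjusted p = 0.0399). Wt1 stood at -1.25 (SE 0.44, edgeR adjusted p = 0.0616) and was called lower in DESeq2 (adjusted p = 0.019), with counts divided by 4 (edgeR adjusted p = 0.0442) and without wild type 2 (edgeR adjusted p = 0.0264). Without labelled knockout 3, wild type 2 or wild type 3, 2 were called.

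**Figure D3:**
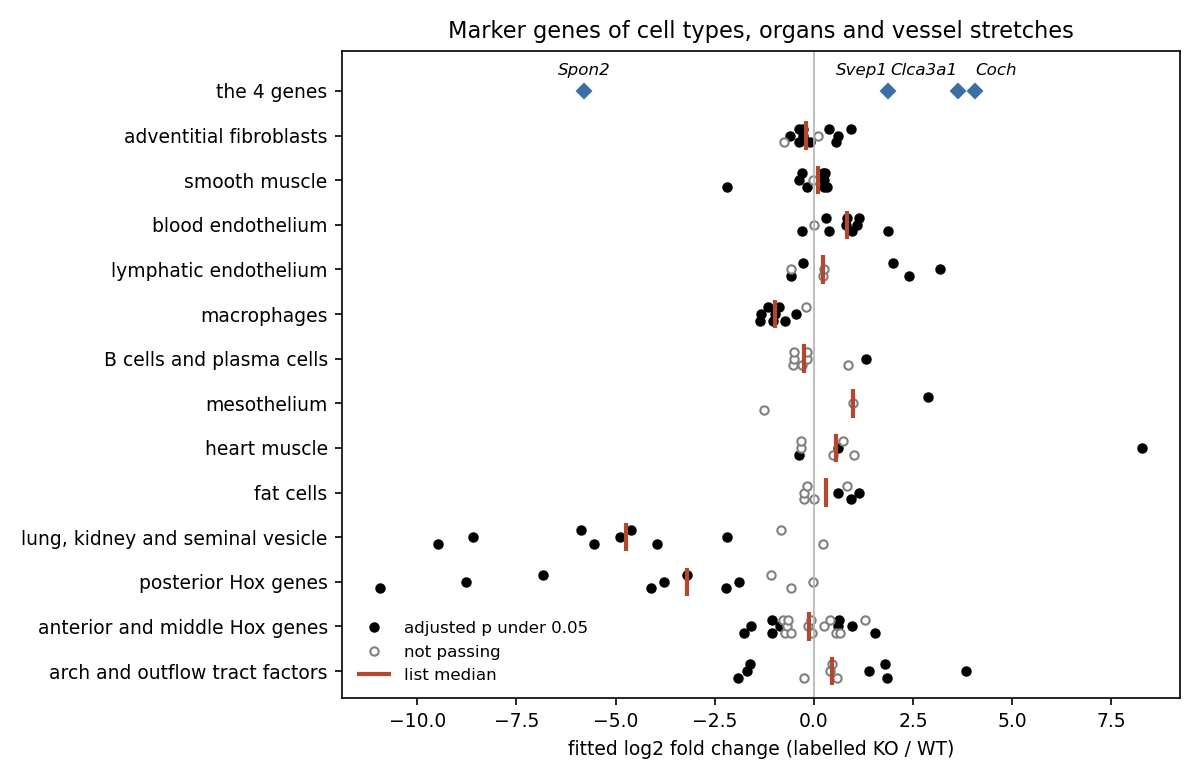
Fitted log2 fold change (labelled knockout over wild type) of each tested marker gene in 13 lists, with the 4 genes in the top row (diamonds); filled points passed edgeR's test, open points did not, and bars mark list medians. Spon2 lies among the values of posterior Hox genes and of lung, kidney and seminal vesicle genes, and the rightmost lymphatic point is Prox1; values below -8 and the single value above 8 belong to genes at 0 counts in a group and are no measured fold.

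Genes next to the 4 on their chromosomes were near the background. Of the 5 nearest tested genes on either side of each, 40 in all, 4 were higher, 5 lower and 31 did not pass, so 22.5% were called against 24.7% of all tested genes, with a median log2 fold change of -0.09. Next to Coch, only Prkd1, a protein kinase gene, passed (0.43, SE 0.11), while Strn3, whose start coordinate is 16.3 kb away, stood at -0.04 and Scfd1 at -0.15. Next to Spon2, Ywhah fell by 0.18 and Fam53a rose by 0.28, and the nearest gene, Ctbp1, did not pass (-0.11, SE 0.06). Next to Clca3a1, Sh3glb1 fell by 0.34, Hs2st1 by 0.47 and Selenof by 0.12. Next to Svep1, Txn1, which encodes thioredoxin, fell by 0.35, while 1 of 3 gene entries named Pakap (0.25) and the lysophosphatidic acid receptor gene Lpar1 (0.26) rose. No neighbour that passed differed by more than 0.47 on the log2 scale. The 5 decreases did not hold with library totals, where Ywhah stood at 0.23, Sh3glb1 at 0.07, Hs2st1 at -0.06, Selenof at 0.29 and Txn1 at 0.06. With library totals 20 of the 40 passed, all upward. On the TMM scale, only 4 passed without labelled knockout 3.

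**Figure D4:**
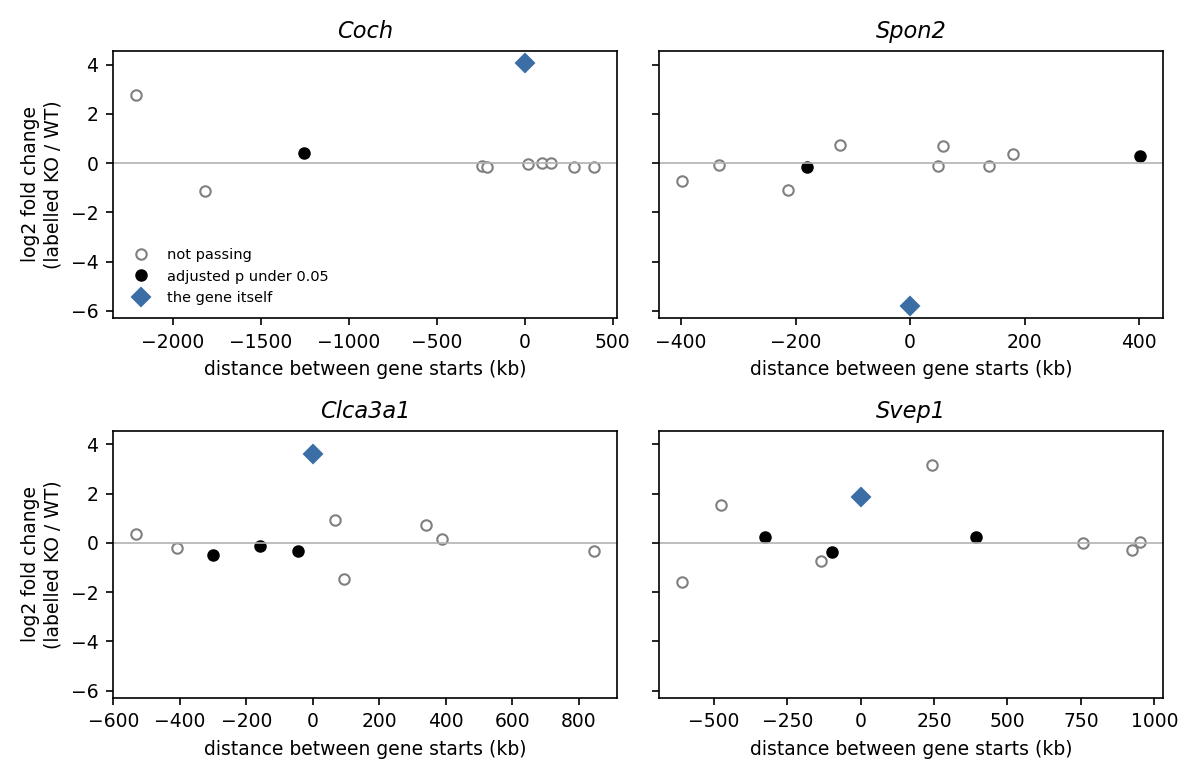
Fitted log2 fold change (labelled knockout over wild type) of the 10 nearest tested genes around each of the 4 genes, against the distance in kb between start coordinates in the table; diamonds are the genes themselves, filled points passed edgeR's test and open points did not. The neighbours that passed lie within 0.47 of 0, while the diamonds stand between -5.80 and 4.07.

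Finally, the genes with the most similar profile were listed for each of the 4, by Euclidean distance over the 6 libraries between log2(CPM + 0.5) values centred on each gene's mean, among 10852 eligible genes. Since the 4 genes were picked for their group difference, their nearest profiles are those of genes with a like difference. For Svep1 these were Cpxm2, a secreted carboxypeptidase relative (distance 0.141), Fmod, the matrix proteoglycan fibromodulin (0.143), Steap4, a metalloreductase gene (0.157), Pex5l (0.176) and the pseudogene Tmem181b-ps (0.191). Fmod had 274.7, 286.0 and 280.2 CPM in the labelled knockouts and 77.4, 78.6 and 79.5 CPM in wild type, close to Svep1 in ratio. For Coch they were Nts, the neurotensin gene (0.614), Bmp3 (0.832), Cmah (0.951), Angptl7 (0.987) and Hhip (0.994). Nts had 8.71, 9.48 and 8.08 CPM in the labelled knockouts and 0.943, 1.06 and 0.435 CPM in wild type. For Clca3a1 they were Cmah, an enzyme of sialic acid metabolism (0.717), Igha, the constant region of immunoglobulin A (0.847), Bmp3 (0.908), Prox1 (1.01) and Nts (1.07), so Cmah, Bmp3 and Nts stood on both lists. For Spon2 they were Spp1, which encodes osteopontin (0.713), Aqp2 (0.715), the vasopressin receptor gene Avpr1a (1.38), Sftpc (1.70) and the mitochondrial tRNA gene mt-Tg (2.04). Spp1 had 12.6, 14.8 and 14.9 CPM in the labelled knockouts and 365.3, 347.0 and 353.0 CPM in wild type. Of these 5 genes, Aqp2 and Sftpc are on the organ list given above, where the other kidney genes were not called.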

How the data were processed

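RNA of 6 aorta samples was measured, 3 labelled Josd2 knockout and 3 wild type, all with Ang II. Per the labels' protocols, polyadenylated RNA was sequenced as paired ends. Bowtie 0.12.2, HISAT2 2.0 and the build mm8 appear, without roles, among the submitters' processing notes. No source used here names the counting tool, strand setting or filters. The authors' deposited table holds estimated counts and FPKM for 41064 genes, per the file headers. In each library more genes hold 4 counts (1091 or more) than hold 3 (867 or fewer), so the values were treated as estimated counts of about 4 per read pair; all were whole. How the authors normalised the deposited FPKM is not stated. Coordinates equal GENCODE M21 (GRCm38) for 92.0% of identifiers; no mm8 coordinates are used. RefSeq promoter windows (GRCm38.p6) matched 3 of the 4 genes.

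Counts were fitted with edgeR 4.0.16 (filterByExpr, TMM, quasi-likelihood test, Benjamini-Hochberg over 20132 genes, threshold 0.05). R 4.3.3, limma 3.58.1, DESeq2 1.42.0 and BLAST+ 2.17.0 (at least 97% identity over 100 bases) were also used. SE values come from that fit. A floor of 3 read pairs, or 12 counts, is 0.137 to 0.149 CPM in the labelled knockouts and 0.186 to 0.218 CPM in wild type, and covers counting error only. The steps were tested on simulated data with planted differences. They recovered 52.2% of the 1.5-fold differences, 75% of the 2-fold and 98.4% of the 4-fold ones, with 13 false calls (8.02%). Small differences can therefore go uncalled. Libraries of a group differed by more than sampling noise. The 4 genes and the lists were chosen with earlier results of these data known. Named genes were the 4 genes, Josd2, the relatives and partners, up to 3 genes with the smallest p in each marker list, the neighbours, and the 5 nearest profiles; further list members named beside these (Cldn5, Lyve1, Pdpn, Ccl21a, Reln, Stab2, Mef2c, Nkx2-5, Upk3b, Svs2, Svs4, Svs6, Slc12a1, Umod, Kap, Hoxa2, Hoxa3, Hoxa4, Hoxb4, Hoxb13 and Hoxd13) were chosen after their values were seen. Alternatives were DESeq2, its size factors or library totals in edgeR, no filter, counts divided by 4, limma on FPKM with a pseudocount of 1 or 0.1, the replicate number as a block, and each library left out.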

Additional observations from a re-analysis of the deposited data

How the results depend on the processing

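Coch, Clca3a1 and Svep1 stayed higher and Spon2 lower in the labelled knockouts in each of the 14 other fits. The fits could hardly do otherwise, because the 4 genes were chosen for this difference and their groups lay at least 3.47-fold apart. Their log2 fold changes ran from 3.77 to 4.68 for Coch, 3.54 to 3.76 for Clca3a1, 1.84 to 1.92 for Svep1 and -6.18 to -5.58 for Spon2 when single libraries were left out. With library totals Clca3a1 was at 4.04 and Svep1 at 2.29. Limma on log2(FPKM + 1), which shrinks low genes, gave 1.69 for Coch, -2.86 for Spon2, 2.62 for Clca3a1 and 1.79 for Svep1, and with a pseudocount of 0.1 it gave -4.83 for Spon2 and 2.22 for Svep1. Genes called numbered 4981, but 10193 with library totals, 10314 and 10196 with limma at pseudocounts of 1 and 0.1, 6815 with DESeq2, and 3756 to 4458 without single libraries. Of the neighbours 20 were called with library totals, 17 and 18 with limma at pseudocounts of 1 and 0.1, and 4 to 10 without single libraries. Mesothelial calls numbered 3 with DESeq2, 2 with no filter or counts divided by 4, and 1 to 2 without single libraries. Lung, kidney and seminal vesicle calls fell to 5 with counts divided by 4, because fewer genes of the list passed the filter there. Those that passed it (Aqp2, Scgb1a1, Sftpa1, Sftpb and Sftpc) were all called. B cell and plasma cell calls were 2 with both limma fits. Lymphatic calls were 3 with limma at a pseudocount of 0.1 and 3 to 5 without single libraries, and those of the Coch relatives 3 to 5. With DESeq2 and with counts divided by 4, Ccl21a was called lower beside Lyve1 and Pdpn. For library totals, the shift of 0.41 is built into the scaling. The deposited FPKM lie close to that scale, since Acta2 stood at 0.11 and Tagln at 0.40 in both limma fits and with library totals. The limma counts of calls are therefore no separate check on those with library totals. Other causes were not tested. The replicate block gave 4560 calls. Same-numbered libraries did not deviate together (correlations of -0.03 to 0.02). With 3 libraries per group these correlations cannot decide whether same-numbered libraries were handled together. Depth limits Coch in wild type and Spon2 in the labelled knockouts, which rest on about 4 to 16 read pairs per library. These numbers hold only if about 4 counts make 1 read pair, which was not tested.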
